A study of Homo sapiens with 10 samples.

Results

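The 8 long noncoding RNAs (lncRNAs) MALAT1, NEAT1, MIAT, KCNQ1OT1, CASC15, NBAT1, NORAD and OIP5-AS1 were examined in a list of poly(A) 3′-seq peaks from neuroblastoma cells. Every peak whose summit lay in the GENCODE 44 body of a member, or up to 600 bp past its 3′ end, was taken. This gave 69 of the 178837 peaks in the list. The 2 peaks in NBAT1 also lie in CASC15, which is transcribed from the opposite strand, so that 71 pairs of a peak and a gene were described. MALAT1 had 7, NEAT1 3, MIAT 6, KCNQ1OT1 21, CASC15 19, NBAT1 2, NORAD 4 and OIP5-AS1 9.

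The cells were IMR-32, an established human neuroblastoma line grown in culture, in which CDK12 or CDK13, kinases of RNA polymerase II, had been depleted with short hairpin RNAs (shRNAs). The hairpins were delivered by pLKO.1 lentivirus and all cells were selected with puromycin for 2 days. The groups were CDK12 sh22, CDK12 sh98, CDK13 sh701, CDK13 sh704 and shGFP as control, with 2 samples each, 10 in all. All 10 libraries, made from polyadenylated RNA with an oligo(dT) kit (QuantSeq REV) that starts each read at the 3′ end, were processed in different batches and merged before peaks were called once, so that the list holds no value per library, no strand and no error between replicates, and the depletions cannot be compared with the control from it. The neuroblastoma markers HAND2, GATA3, ISL1, DBH, TH, CHGB, STMN2 and MYCN each had a peak at an annotated transcript end, with a strongest pileup of 16 (ISL1) to 73 (MYCN) reads. Of 7 markers of other cells, PTPRC, PECAM1 and COL1A2 had no peak and ALB, EPCAM, COL1A1 and SOX10 had end peaks with pileups of 3 to 14, just below the lowest of the neuroblastoma markers.

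The members differ in how their 3′ ends are known to form. Most lncRNAs are cleaved and polyadenylated like mRNAs, downstream of an AATAAA or ATTAAA hexamer (the core signal, AAUAAA or AUUAAA in RNA). MALAT1, a component of nuclear speckles, and the long isoform of NEAT1, the scaffold of paraspeckles, are instead cut upstream of a tRNA-like small RNA and keep a genomically encoded A-rich end in place of a poly(A) tail, whereas the short isoform of NEAT1 is polyadenylated. Oligo(dT) can prime on a poly(A) tail and also on A stretches that are encoded in the genome and lie inside an RNA, so that the sequence next to a peak was read for both features.

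Each peak was placed at the edge of its interval that is downstream for the gene. It was called A-rich if at least 7 of the 10 bases downstream of the edge were A, and to have a core signal if AATAAA or ATTAAA started 10 to 40 bp upstream. The sequences that separate the types are shown first, from GRCh38 and 5′ to 3′ on the strand of the gene, each with 40 bases up to the edge and 20 bases past it. Capitals mark the core signal and runs of 6 or more A. The NEAT1 sequences show both kinds side by side, and the MALAT1 sequences a peak with a core signal and one without.
NEAT1, end of the short isoform, chr11:65426490-65426549, plus strand: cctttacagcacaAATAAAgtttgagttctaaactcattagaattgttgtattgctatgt
NEAT1, internal, chr11:65440439-65440498, plus strand: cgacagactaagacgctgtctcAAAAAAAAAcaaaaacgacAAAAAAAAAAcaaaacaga
MALAT1, core signal, chr11:65502961-65503020, plus strand: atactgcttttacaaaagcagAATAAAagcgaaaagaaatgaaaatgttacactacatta
MALAT1, strongest peak, chr11:65499923-65499982, plus strand: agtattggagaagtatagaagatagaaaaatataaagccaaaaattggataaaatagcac

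The ends before the small RNAs, where no peak was called, are shown for comparison as the 60 bases that run up to the first base of the annotated small RNA.
MALAT1, before the small RNA, chr11:65506057-65506116, plus strand: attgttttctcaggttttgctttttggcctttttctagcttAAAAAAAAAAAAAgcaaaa
NEAT1, before the small RNA, chr11:65445481-65445540, plus strand: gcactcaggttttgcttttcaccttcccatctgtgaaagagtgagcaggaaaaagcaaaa

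Strength is given as the pileup at the summit, the number of distinct read positions whose reads, extended to 100 bp, cover the summit, which was recovered from the deposited fold and p-value. It does not exceed 200 in the list, as with each position counted once per strand, so that reads of 1 strand can reach at most 100, has a median of 9 over all peaks and is not an expression level. The local background of each peak also gave the number of distinct reads, on either strand, in the 10 kb around the summit. That count was whole, within 0.05, for 99.9% of the peaks above the smallest background in the list. At that smallest background, 21787 peaks of the list have at most about 21.5 such reads, and their own count is not known. Of the 71 pairs, 58 had a pileup of 9 or more.

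Over the members, 28 of the 71 pairs were A-rich, 39.4% (95% Wilson interval 28.9 to 51.1, counting error only). The same rule called 57.9% of all 145734 peaks in genes of 1 strand, and 46.2% of the 11721 peaks in lncRNA genes outside protein-coding genes. A core signal without A-rich sequence was found for 19 pairs, 26.8% (17.9 to 38.1), against 16.4% and 22.4% in the same backgrounds. A further 5 pairs were A-rich and had a core signal. Neither feature was found for 24 pairs, 33.8% (23.9 to 45.4), against 25.7% and 31.3%. The intervals for the A-rich peaks and for the core signal include the shares of lncRNA genes, and the first lies below the share of all peaks in genes of 1 strand. Both backgrounds leave out peaks over genes of both strands, whereas 36 of the 71 pairs lie over a gene of the other strand. Without these, 12 of 35 pairs were A-rich (34.3%) and 15 of 35 had a core signal alone (42.9%). The latter share lies well above 22.4%, and no interval was computed for it. Without KCNQ1OT1, left out after the data were seen, 13 of 50 pairs were A-rich (26%), below the interval of the full set. The likeness to lncRNA genes thus holds for the full set only. Of the 24 core signals, 20 were AATAAA and 4 ATTAAA, and they started 16 to 39 bp upstream of the edge, with a median of 26 bp.

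The same 71 pairs were also read on the opposite strand, where 4 were A-rich (5.63%) and 7 had a core signal (9.86%). Both features thus lay mostly on the strand of the named gene, although the list itself has no strand and 36 of the 71 pairs lie over an annotated gene of the other strand. The 4 peaks that were A-rich on the other strand had 2 to 6 A on the strand of the gene.

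**Figure D1:**
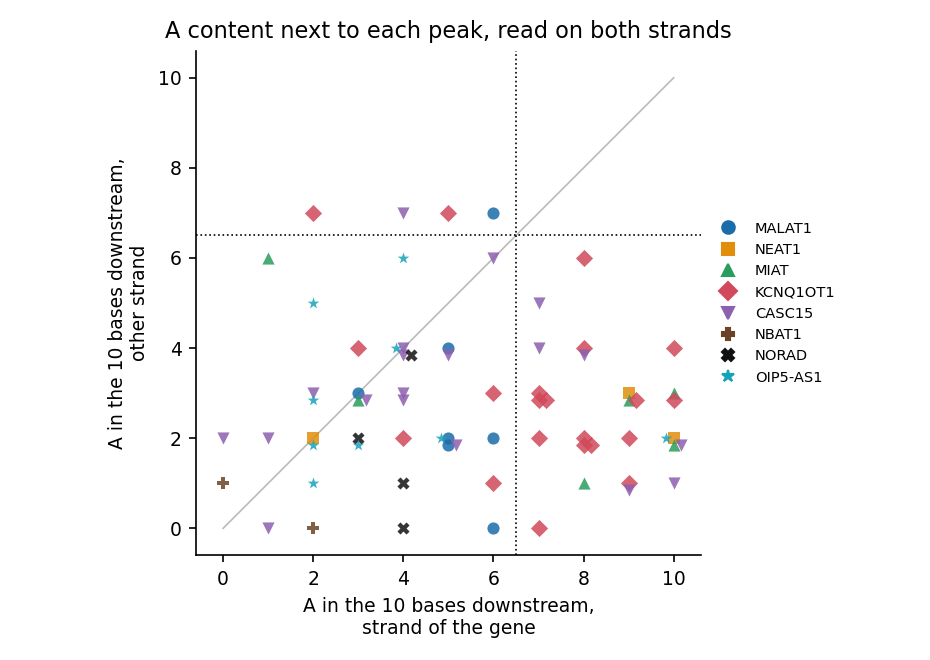
Number of A in the 10 bases past the 3′ edge of each of the 71 pairs of a peak and a gene, read on the strand of the gene (horizontal) and on the other strand (vertical), with a marker for each of the 8 lncRNAs and slight offsets where points coincide. The dotted lines mark the limit of 7 A, the grey line marks equal counts, and 28 points lie to the right of the vertical line and 4 above the horizontal one.

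The position of a peak went with its type. Windows around annotated transcript ends, 200 bp to the 5′ side and 600 bp to the 3′ side, held 28 pairs (39.4%, interval 28.9 to 51.1, against 21.8% of the peaks in lncRNA genes). MALAT1 gave 7 of the 28 and OIP5-AS1 6, with windows over 74.9% and 36.2% of these genes. With the end of the longest transcript only, the share of the members was 7.04%. Of the 28 pairs, 13 had a core signal without A-rich sequence (46.4%, interval 29.5 to 64.2, against 50.4% for end windows of lncRNA genes) and 6 were A-rich (21.4%, against 22.2%). Of the 43 pairs elsewhere, 22 were A-rich (51.2%, 36.8 to 65.4, against 52.9% for peaks of lncRNA genes outside end windows) and 6 had a core signal without A-rich sequence (14.0%, 6.56 to 27.3, against 14.6%). In both places the shares of the members were thus near those of lncRNA genes at large, although only the members include peaks over genes of both strands. All 8 members had at least 1 peak in an end window with a core signal and without A-rich sequence, as did 9 of the 12 further lncRNAs listed below. How many lncRNA genes at large have such a peak was not counted. The end windows cover from 1.44% of the gene (NBAT1) to 74.9% (MALAT1), so that the members had unequal room for one. The edge lay within 10 bp of an annotated transcript end for 13 pairs, 10 of which had a core signal without A-rich sequence, the other 3 being A-rich.

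Pileups differed between the types in their middle and overlapped in their range. The 19 pairs with a core signal alone had a median pileup of 23 (5 to 64) and the 23 A-rich pairs without a signal one of 11 (3 to 26). The 24 pairs with neither had a median of 17.5 (6 to 100), and the 5 with both had one of 12 (4 to 18). No A-rich pair exceeded a pileup of 26. The types were spread unevenly over the genes, which also differ in local reads. KCNQ1OT1 gave 11 of the 23 A-rich pairs without a signal and 2 of the 19 with a core signal alone, while OIP5-AS1 gave 1 and 5. The medians thus compare different genes as well as different types, and the 2 cannot be told apart in them.

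**Figure D2:**
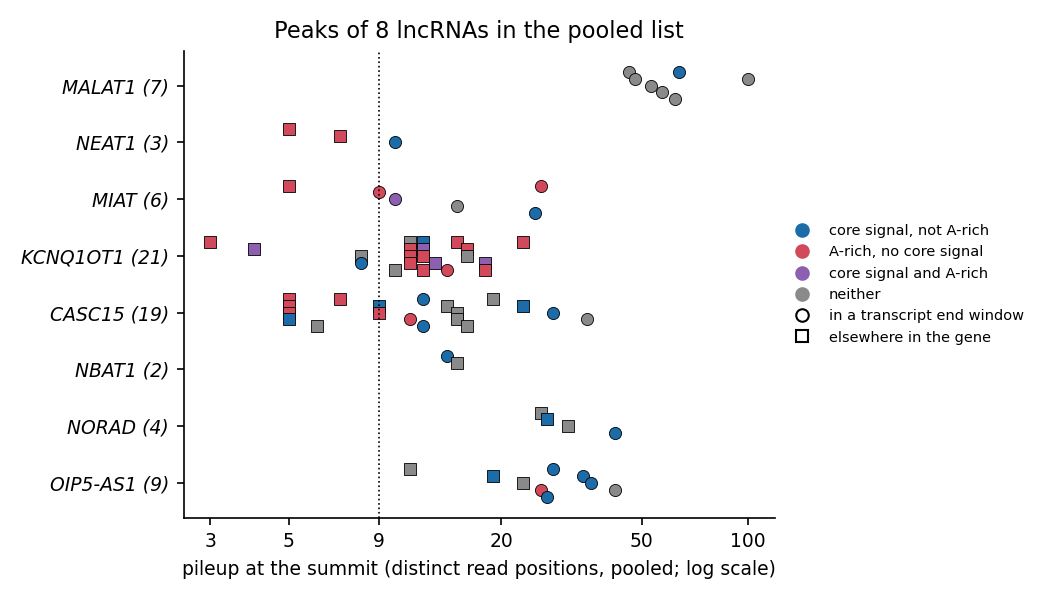
Pileup at the summit (distinct read positions of the pooled libraries, log scale) of each peak in the 8 lncRNAs, with the number of peaks in parentheses. Colour gives the sequence type and shape the position, and the dotted line is the median pileup of the list, 9. The 7 MALAT1 peaks lie between 46 and 100, and no A-rich peak lies above 26.

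MALAT1 (ENSG00000251562, chromosome 11, 65497640 to 65508073, plus strand) had the highest pileups of the 8 genes. The pileups of its 7 peaks were, from 5′ to 3′, 100, 48, 62, 46, 53, 64 and 57, with folds over the local background of 2.42 to 5.69. The 10 kb around each of the 7 summits held 1674 to 1898 distinct reads, while the other 7 genes did not exceed 388 around any peak. The strongest peak stands exactly at the limit of 100 for reads of 1 strand, and repeated reads at a position are not counted. How far the reads of MALAT1 gathered at single sites therefore cannot be read from these values.

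None of the 7 MALAT1 peaks was A-rich, with 3 to 6 A in the 10 bases downstream. A core signal was found at 1 of them, with AATAAA 18 bp upstream of an edge at position 65503000. This peak had a pileup of 64 and 5 A of 10 downstream, and 4 annotated transcripts end within 10 bp of its edge. The other 6 peaks, the strongest among them, had neither feature at their edge. The strongest peak is 907 bp wide, so that its edge is a poor guide to a cleavage site. With positions 50 bp past the summits in place of the edges, 2 MALAT1 peaks had a core signal and none was A-rich. All 7 lie in a transcript end window, but the 66 annotated transcripts of MALAT1 have 39 different ends whose windows cover 74.9% of the gene.

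The MALAT1 edges were moderately rich in A. None met the limit in the 10 bases past the edge, but 3 of the 7 had a window with 7 A of 10 that started within 10 bp of the edge on either side, among them the strongest peak and the one with the core signal. At 6 of the 7, 5 or more of the 10 bases downstream were A, while 17.7% of all positions in the gene meet that looser limit, which was chosen after the values were seen. Read on the other strand, 1 of the 7 did, with 17.2% of positions. Of the 14 runs of 6 or more A in MALAT1, none lay next to the edge of a peak, from 5 bp before it to 20 bp past it. Some runs lie inside the peaks, however. The strongest peak, whose edge is 2322 bp from the gene start, spans runs that start at 1516, 1692, 2107 and 2147 bp. Another run starts at 2345 bp, just past that edge. The run of 8 A at 2548 bp lies inside the second peak, and a run at 5183 bp inside the peak with the core signal. Whether reads began at these runs was not tested. TALAM1, an antisense lncRNA, covers all 7 peaks, and the strand of the reads is not in the list. ENSG00000278217, a gene of the same strand as MALAT1, covers the summit of the peak with the core signal.

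No peak was called at the mature 3′ end of MALAT1. The longest A run of the gene, 13 bases at positions 65506098 to 65506110, stands just before the annotated small RNA (ENSG00000274072, 57 bp, positions 65506117 to 65506173), and 18 of the 40 bases before the small RNA are A. The nearest peak edge lies 2302 bp upstream of the run. At the background of that peak, 18.98 reads, a pileup of at least 34 was needed to reach the weakest p-value in the list, and the smallest pileup called in the gene was 46. The reads counted around successive summits bound the signal there. The 10 kb around the strongest peak do not reach the run, and each next window added bases at its 3′ side: the first 448 bp added gained 95 reads, the next 419 bp 28 reads and the next 345 bp 45 reads. The following 1376 bp, positions 65505894 to 65507269, which hold the A run and the small RNA, gained 55 reads. Each gain is a lower bound of the reads that entered, since reads that left at the 5′ side are subtracted. At least 55 reads thus lay in the region of the mature 3′ end, without a called peak, and their place within the 1376 bp is not known. The last 2 steps gained 1 and 0 reads, but there the bases that left were partly MALAT1 itself, so that these gains bound nothing.

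NEAT1 (ENSG00000245532, chromosome 11, 65422774 to 65445540, plus strand) had 1 peak at the end of its short isoform and 2 inside its long isoform. The peak at the end of the short isoform had its summit at 65426476 and its edge 16 bp past the end of transcript NEAT1-209, with AATAAA 26 bp upstream of the edge and 2 A of 10 downstream. Its pileup was 10, its fold 8.27, and it held 30.3% of the 33 reads in the 10 kb around it.

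The 2 other NEAT1 peaks lie in the long isoform only and next to genomic A stretches. The peak with its summit at 65440426 had a pileup of 7 and 9 A of 10 downstream. The peak with its summit at 65440797 had a pileup of 5 and 10 A of 10, in a run of 22 A, the longest of the gene. Neither has a core signal, both stand at the smallest background of the list, and the nearest annotated ends lie about 5 kb away. The study removed peaks that lay beside 25 bases in a row of which no more than 3 are not A and that had no poly(A) hexamer upstream. This filter would remove the second and keep the first. Of the 14 runs of 6 or more A in NEAT1, 3 lay next to the edges of these 2 peaks, and 11 had no peak.

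No peak was called at the 3′ end of the long isoform, which the annotation places directly before its small RNA (ENSG00000275948, 58 bp). The last 40 bases hold 17 A but no run of 6 or more. The nearest peak edge lies 4698 bp upstream. At the smallest background, where that peak stands, a pileup of 3 would have sufficed for a call. MALAT1 and NEAT1 thus had the same gap in the list: neither had a peak in front of its small RNA. The backgrounds of their nearest peaks were very different, and those at the ends themselves are not in the list.

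**Figure D3:**
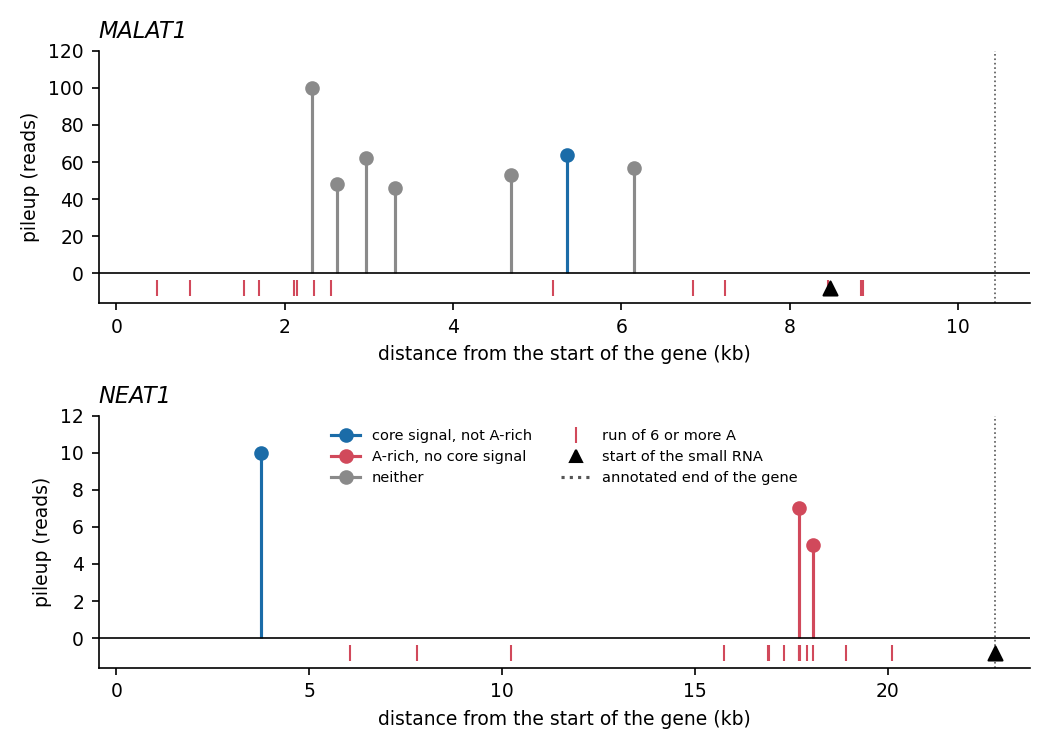
Peaks of MALAT1 (top) and NEAT1 (bottom) by distance of the 3′ edge from the start of the gene in kb (horizontal) and pileup in distinct reads (vertical, on different scales), coloured by sequence type. Red ticks below the axis mark runs of 6 or more A, the triangle the start of the annotated small RNA and the dotted line the annotated end of the gene. No MALAT1 peak has a run next to its edge, although some runs lie inside its peaks. Both red NEAT1 peaks have a run next to their edge, and no peak stands at either triangle.

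NORAD (ENSG00000260032, chromosome 20, 36045618 to 36051018, minus strand) is an lncRNA known mainly from the cytoplasm, where repeated units of its sequence bind RNA-binding proteins. Its 4 peaks had pileups of 42, 27, 31 and 26, counted from the 3′ end, with 383 to 388 reads in the 10 kb around them. The strongest was the terminal one, with AATAAA 22 bp upstream of an edge that lies 7 bp before the annotated end. A second, at summit 36046747, had ATTAAA 39 bp upstream. Of the 3 core signals in the whole of NORAD, 2 had a peak edge 10 to 40 bp downstream. None of the 4 peaks was A-rich (3 to 4 A of 10), and neither of the 2 runs of 6 or more A in the gene lay next to an edge.
NORAD, annotated end, chr20:36045605-36045664, minus strand: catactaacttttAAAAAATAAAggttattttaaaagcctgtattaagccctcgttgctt
NORAD, internal, chr20:36048196-36048255, minus strand: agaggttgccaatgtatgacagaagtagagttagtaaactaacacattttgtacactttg
NORAD, internal, chr20:36049395-36049454, minus strand: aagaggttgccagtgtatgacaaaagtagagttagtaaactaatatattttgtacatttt

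The 2 internal NORAD peaks with neither feature, which were singled out after their sequences were seen, end in nearly the same sequence. Shifted by 1 base, 54 of 59 compared bases are the same (91.5%), whereas the other 5 pairs of the 4 sequences reach at most 48.2%. The edges of these 2 peaks thus fall at the same place of 2 like stretches of the gene. Whether reads were shared between the copies was not tested.

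MIAT (ENSG00000225783, chromosome 22, 26646411 to 26676475, plus strand) is a nuclear lncRNA of neurons. It had 6 peaks, of which 4 were A-rich. Its terminal peak had a pileup of 25, ATTAAA 26 bp upstream of an edge 5 bp past the annotated end, and 1 A of 10 downstream, and 4 annotated transcripts end within 10 bp of that edge. The strongest peak, at summit 26670529, had a pileup of 26 and lies beside a run of 24 A, 12 bp past the end of transcript MIAT-226. The 2 strongest peaks of the gene, nearly equal in pileup, thus differ in type. The other end window peaks were at summits 26659710 (pileup 10, 9 A of 10 and AATAAA 39 bp upstream), 26665211 (pileup 9, 8 A of 10) and 26671028 (pileup 15, neither feature). At the first of these an annotated transcript ends 9 bp past the edge, beside a run of A. The antisense lncRNA ENSG00000206028 covers 2 of the 6 peaks, the strongest among them. MIATNB, a gene of the same strand, covers the summit of the terminal peak.
MIAT, annotated end, chr22:26676441-26676500, plus strand: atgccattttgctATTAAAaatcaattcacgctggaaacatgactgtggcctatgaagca
MIAT, strongest peak, chr22:26670572-26670631, plus strand: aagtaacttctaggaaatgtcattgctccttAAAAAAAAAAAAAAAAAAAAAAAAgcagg

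OIP5-AS1 (ENSG00000247556, chromosome 15, 41283958 to 41322392, plus strand), a conserved lncRNA that carries a site for the microRNA miR-7, had 9 peaks with pileups of 11 to 42. A core signal without A-rich sequence was found at 5 of them and A-rich sequence at 1, the lowest A-rich share of the members with any A-rich peak. The edge of the peak with summit 41299561 (pileup 28) had AATAAA 32 bp upstream and lay within 10 bp of 13 transcript ends, more than any other member peak. Peaks at summits 41289132 (pileup 34, AATAAA 27 bp upstream), 41299003 (pileup 36, AATAAA 38 bp upstream) and 41306441 (pileup 27, AATAAA 27 bp upstream) also lay within 10 bp of annotated ends. The last of these also had ATTAAA as a core signal when read on the other strand. The single A-rich peak, at summit 41301958, had a pileup of 26, and 10 A of 10 downstream. No edge lay nearer than 13.0 kb to the 3′ end of the annotated gene, and the ends that the peaks lie next to are those of shorter transcripts. A read-through gene of the same strand, ENSG00000285920, covers all 9 peaks.
OIP5-AS1, 13 transcript ends, chr15:41299590-41299649, plus strand: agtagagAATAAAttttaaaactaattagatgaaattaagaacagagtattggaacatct

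The strongest OIP5-AS1 peak, at summit 41309290 with a pileup of 42, lies over the 3′ end of OIP5, a protein-coding gene of the opposite strand. Its edge on the OIP5 strand is 67 bp past the end of OIP5, and its edge on the OIP5-AS1 strand is 91 bp past the nearest transcript end. Neither strand has a core signal at the edge, and both have 4 A of 10 downstream, so that the 2 genes cannot be told apart for this peak.

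KCNQ1OT1 (ENSG00000269821, chromosome 11, 2597308 to 2700003, minus strand) is the antisense RNA of the imprinted KCNQ1 domain and lies wholly inside KCNQ1. It had 21 peaks with pileups of 3 to 23, the most of any member, and 15 of the 21 were A-rich. For comparison, 4 of 6 peaks were A-rich in MIAT, 2 of 3 in NEAT1, and 57.9% of all peaks in genes of 1 strand. The A-rich share of KCNQ1OT1 was thus not particular to it. The same 21 peaks read on the KCNQ1 strand gave 2 that were A-rich, and the peaks with a core signal numbered 6 on the KCNQ1OT1 strand and 0 on that of KCNQ1. The sequence of the domain is itself unequal: the KCNQ1OT1 strand has 187 runs of 6 or more A and the KCNQ1 strand 47. Of these, 16 (8.56%) and 1 (2.13%) had a peak edge beside them. On the KCNQ1OT1 strand 4.52% of all positions meet the A-rich rule, and 0.829% on the other. A run of A without a peak was thus the rule on both strands.

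At its 3′ end, KCNQ1OT1 had a peak with a pileup of 8, whose edge lies 5 bp before the annotated end with AATAAA 22 bp upstream and 3 A of 10 downstream. It held 24.2% of the 33 reads in the 10 kb around it. The strongest peak of the gene lies near its start, at summit 2696991, with a pileup of 23 and 9 A of 10 downstream, and KCNQ1OT1 was one of the members, with MIAT, whose strongest peak was A-rich. The next, at summits 2679939 and 2634222, had pileups of 18 each and were A-rich too, the latter with AATAAA 30 bp upstream. The other end window peak, at summit 2684011, had a pileup of 14, 10 A of 10 downstream and an annotated transcript end 8 bp past its edge. Reads were found along the gene at up to 155 per 10 kb around summit 2642696, near its middle. KCNQ1 itself had no peak at an annotated end, and 21 of its 22 peaks are those counted here. CDKN1C, a growth inhibitor of the same domain, had an end peak with a core signal and a pileup of 44.
KCNQ1OT1, annotated end, chr11:2597293-2597352, minus strand: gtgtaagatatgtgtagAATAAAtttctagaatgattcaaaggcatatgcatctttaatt
KCNQ1OT1, strongest peak, chr11:2696874-2696933, minus strand: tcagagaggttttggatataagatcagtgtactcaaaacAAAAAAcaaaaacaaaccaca

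CASC15 and NBAT1 are overlapping lncRNAs of opposite strands at the neuroblastoma risk locus 6p22, where NBAT1 is known for low expression in high-risk tumours. NBAT1 (ENSG00000260455, chromosome 6, 22133205 to 22147193, minus strand) had a terminal peak at summit 22133222 with a pileup of 14, which held 51.9% of the 27 reads in the 10 kb around it. Its edge lies 12 bp past the annotated end with AATAAA 27 bp upstream and 0 A of 10 downstream. On the CASC15 strand the same peak has no core signal and 1 A of 10, and no CASC15 transcript ends within 14 kb of it. The other NBAT1 peak, at summit 22146611 near its start, had a pileup of 15, neither feature on either strand and 217 reads in the 10 kb around it.
NBAT1, annotated end, chr6:22133173-22133232, minus strand: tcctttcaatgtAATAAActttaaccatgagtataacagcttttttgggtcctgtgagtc

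CASC15 (ENSG00000272168, chromosome 6, 21664184 to 22654455, plus strand) spans 990 kb, and its peaks were few and unevenly placed. Of its 19 peaks, 11 lay in the 60 kb downstream of the NBAT1 start, a window that was chosen after the positions were seen and covers 6.06% of the gene. These 11 had a median pileup of 12 and held all 6 peaks with a core signal, while 2 of them were A-rich. The other 8 had a median pileup of 7.5, no core signal without A-rich sequence, and 4 that were A-rich. The strongest CASC15 peak, at summit 22147698, lies 505 bp downstream of the NBAT1 start. It had a pileup of 35, 266 reads in the 10 kb around it and neither feature on the CASC15 strand. Its edge on that strand lies 42 bp past a CASC15 transcript end. Read on the other strand, the peak was A-rich, with 7 A of 10.

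The next CASC15 peaks by pileup were at summits 22151608 (28, with AATAAA 16 bp upstream), 22156996 (23, with AATAAA 17 bp upstream), 22148826 (19, neither) and 22158403 (16, neither). The first of these also had AATAAA as a core signal when read on the other strand. Further along, the peak at summit 22195076 (pileup 12) had AATAAA 20 bp upstream of an edge within 10 bp of 5 transcript ends. The peak at summit 22197201 (pileup 12) had AATAAA 27 bp upstream and an end 2 bp away. Another, at summit 22194329, (pileup 11) was A-rich, with 2 annotated ends within 10 bp of its edge. CASC15 thus had peaks with a core signal in the middle of the gene, and no peak near its annotated end, since the last stood 367 kb before it.
CASC15, 5 transcript ends, chr6:22195094-22195153, plus strand: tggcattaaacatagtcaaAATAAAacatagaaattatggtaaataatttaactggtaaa
CASC15, between ends, chr6:22157046-22157105, plus strand: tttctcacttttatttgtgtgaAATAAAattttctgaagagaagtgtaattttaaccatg

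That last CASC15 peak, at summit 22287315 with a pileup of 15 and 68.2% of the 22 reads in the 10 kb around it, lies at the 3′ end of PRL, the prolactin gene on the opposite strand. On the PRL strand its edge is 5 bp before the annotated end with AATAAA 34 bp upstream, and on the CASC15 strand it has neither feature, far from any CASC15 transcript end. Both the first NBAT1 peak and this one thus counted as CASC15 peaks by position, while the core signal lay on the other strand.

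**Figure D4:**
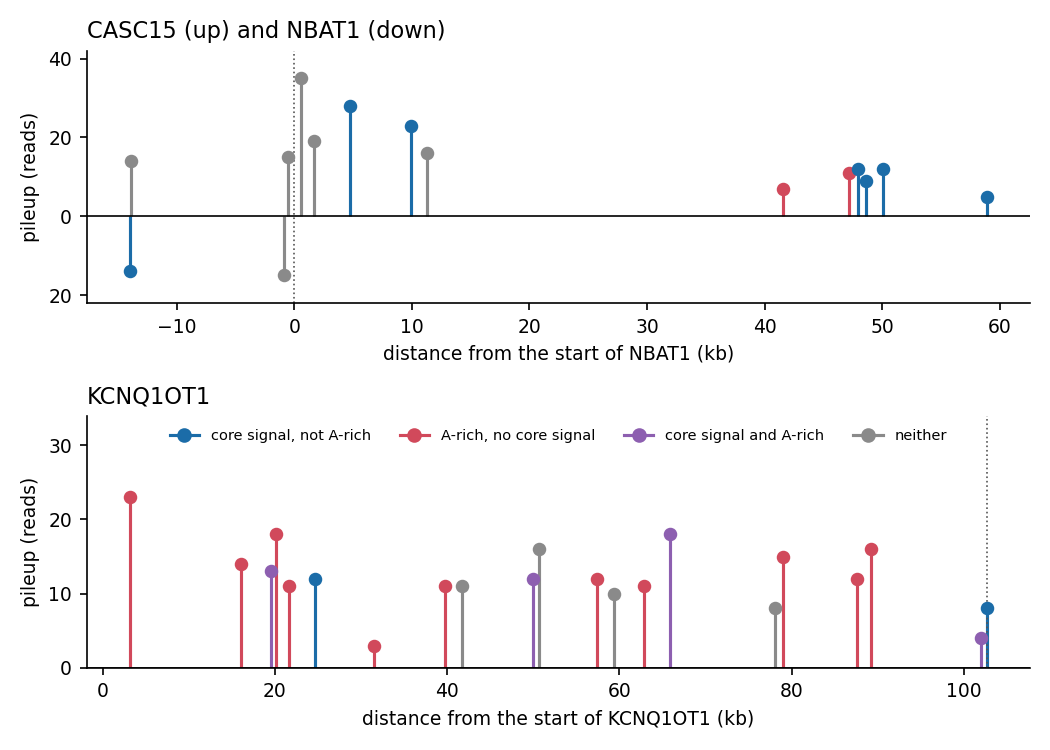
Top, peaks of CASC15 (pileup upward) and NBAT1 (downward) by distance from the start of NBAT1 in kb, with both NBAT1 peaks drawn on both strands at their edge on that strand, and the dotted line at the NBAT1 start. Bottom, the 21 peaks of KCNQ1OT1 by distance from its start, with the dotted line at its annotated end, where a peak with a core signal and a pileup of 8 stands while most others are A-rich.

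The pileup can also be set against the distinct reads around it. The summits held 6.71 to 25.6% of these reads in KCNQ1OT1, 8.57 to 40% in MIAT, 6.27 to 28.3% in OIP5-AS1, 6.91 to 68.2% in CASC15 and 6.77 to 10.8% in NORAD. The ranges overlap. The highest pileup in these genes was 42, below the limit of 100 for reads of 1 strand. No order of the genes was read from the shares. Reads of both strands and of neighbouring genes enter the 10 kb.

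**Figure D5:**
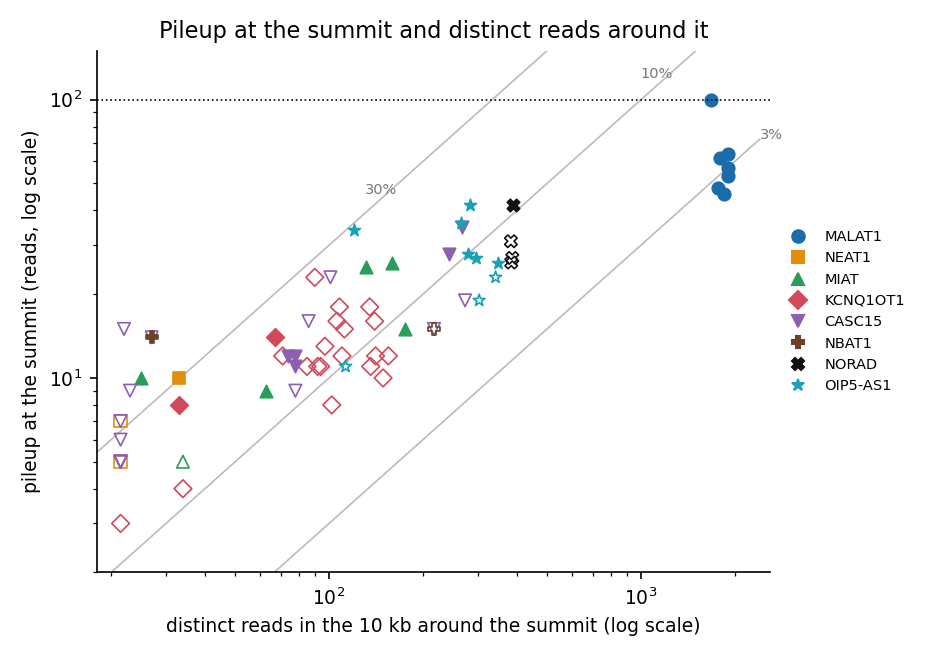
Pileup at the summit (distinct reads, log scale) against the distinct reads in the 10 kb around the summit (log scale) for the 71 pairs, with filled markers for peaks in transcript end windows and open markers elsewhere. Grey lines mark 3, 10 and 30% of the local reads at the summit, the dotted line marks the limit of 100 for reads of 1 strand, and peaks at the smallest background are drawn at 21.5 reads. The MALAT1 points lie at the right, at 1674 to 1898 reads, where that limit bounds the share, and the strongest stands at the limit.

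Some A-rich peaks shared a further sequence. The letters GCCTGGG, which occur near the 3′ end of Alu repeats just before their A tail, were searched on the strand of the gene in the 60 bases up to the edge, after they had been noticed in these sequences. They were found at 6 of the 28 A-rich pairs (21.4%, in CASC15, MIAT, NEAT1 and OIP5-AS1) and at 0 of the other 43. Among all peaks in genes of 1 strand, 21.9% of 84325 A-rich peaks and 1.15% of 61409 others had them, close to the shares of the members.

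Other genes of the same settings gave the following counts. Of 12 further lncRNAs (TUG1, MEG3, SNHG1, GAS5, DLEU2, LINC00461, JPX, FTX, CRNDE, SOX2-OT, RMST and LINC-PINT), 10 had peaks and 9 an end peak with a core signal and without A-rich sequence, while LINC00461 and RMST had no peak. All 9 genes of paraspeckle proteins and their regulators (among them NONO, SFPQ and NUDT21) had an end peak, 7 of them with a core signal alone, and all 4 genes of nuclear speckles (SRSF1, SRSF2, SON, SRRM2) had one with it. PUM2 and ELAVL1, whose proteins bind NORAD or OIP5-AS1, had end peaks too, both with a core signal alone and with strongest pileups of 65 and 26. All of EZH2, USP36 and SOX9, linked to NBAT1 and CASC15, had an end peak with a core signal. How many protein-coding genes at large have an end peak, with or without a core signal, was not counted. No trait of the listed genes was therefore read from these counts.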

How the data were processed

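The authors mapped the poly(A) 3′-seq reads to GRCh38 with STAR 2.5.1b, downsampled and merged the libraries and called peaks with MACS2 2.1.1 with reads extended to 100 bp (versions from the notes of the submitters on processing). The deposited fold of each peak is a ratio of pileup to local background, and the deposited p-value and q-value are given as −log10. Depth per library is not in the list. Peaks were joined to GENCODE 44 by their summits, with sequence from GRCh38. Pileup and background were solved together from the deposited fold and p-value (Poisson). The largest miss of the −log10 p-value was 0.000168, against a median of 0.0780 for the next best whole number. The background times 100 gave the reads in 10 kb. Before use, the steps were tested on simulated data. Shares have 95% Wilson intervals. No test between groups was run. All members were named, with their strongest peak, their end window peaks and, where a gene had 10 or more peaks, up to 3 others by pileup, and every peak of MALAT1 and NEAT1. The members and lists were chosen with earlier results of these data known. Python 3.11.15, numpy 2.4.6, scipy 1.17.1, pandas 2.3.3 and matplotlib 3.10.9 were used. Some genes and a sequence are not reported here.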

Additional observations from a re-analysis of the deposited data

How the results depend on the processing

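No paired analysis was possible because the libraries were pooled before peaks were called, and for the same reason no replicate could be left out. The A-rich share of 39.4% was 2.82% at the summit itself, 22.5% at 50 bp past it, 8.45% with a 25-base stretch of A as the rule, 10% (1 of 10 peaks) at a −log10 q of 20 or more and 26% without KCNQ1OT1, which was left out after seeing the data. The share with a core signal alone, 26.8%, was 47.9% with 12 hexamers within 100 bp, 11.3% at the summit, 50% at the stricter q and 42.9% without peaks over genes of the other strand. The share in end windows, 39.4%, was 7.04% with the longest transcript only and 70% at the stricter q. The 71 pairs fell to 10 at the stricter q and to 35 without peaks over genes of the other strand. At 50 bp past the summit, MIAT had 2 A-rich peaks in place of 4, KCNQ1OT1 8 in place of 15 and OIP5-AS1 0 in place of 1, and with a limit of 6 A MALAT1 had 3. The other 19 alternatives for these shares and counts, and 12 for the A-rich peaks of single genes, stayed within the interval of the share or within 1.5 times the count. Site types therefore depend on where in a peak the site is placed, and the list gives no cleavage position to check it.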
